A study of Mus musculus with 2 samples.

Results

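Ccl3, Ccl4, Ccl5 and Ccr1 encode 3 CC chemokines and 1 receptor of theirs, and these 4 genes were followed through every cell class of imiquimod-treated mouse skin. They were picked by symbol from 55471 gene entries, with earlier results of these data in view, and each was found as a single entry. Their levels in the 2 libraries helped to choose them, so the differences between the libraries are a description and support nothing. The data are single-cell 3' RNA libraries of dorsal skin from C57BL/6 mice at 7 weeks of age. For the first library the skin had been treated with imiquimod. This is an agonist of Toll-like receptors, applied as a cream to give mice a psoriasis-like inflammation. The other came from skin that had been treated with imiquimod and with Shi-Bi-Man, which the series names as a natural product, and is called the Shi-Bi-Man library here. Both groups thus carry imiquimod, no untreated skin was analysed here, and how many animals went into a library is not stated in the labels. With 1 library per group there is no replicate check and no test between treatments, and each interval below is an exact 95% interval that covers counting error only.

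CC chemokines are small secreted proteins that draw leukocytes along a gradient by binding G protein-coupled receptors on the leukocyte surface. CCL3 and CCL4 are closely related and are made by activated macrophages, mast cells and lymphocytes, whereas CCL5, also called RANTES, is a characteristic product of effector CD8 T cells and natural killer (NK) cells. CCR1 is carried by monocytes, macrophages, neutrophils and other leukocytes. It binds CCL3 and CCL5 strongly and CCL4 weakly, and in the mouse it also binds CCL6, CCL7 and CCL9. The 3 ligand genes lie in the CC chemokine cluster of mouse chromosome 11, within 138.9 kb on the GRCm38 build. Ccl3 (ENSMUSG00000000982) spans chr11:83647844-83649355 on the minus strand with 3 exons. Ccl4 (ENSMUSG00000018930) spans chr11:83662584-83664683 on the plus strand with 3 exons, and 13.2 kb separate it from Ccl3. Ccl5 (ENSMUSG00000035042) spans chr11:83525778-83530518 on the minus strand, in 2 transcripts of 2 and 3 exons. Ccr1 (ENSMUSG00000025804) lies elsewhere, at chr9:123962124-123968692 on the minus strand, with 2 exons. The annotation places no other gene over any of the 4, so reads of a neighbour do not overlap them.

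The promoters of Ccl3 and Ccr1 are shown because only these 2 of the 4 members matched the RefSeq promoters used here. They are the 250 bases before the RefSeq start, on the minus strand of GRCm38.p6 and written 5′ to 3′, at chr11:83649379-83649628 for Ccl3 and chr9:123968693-123968942 for Ccr1. Capitals mark the motif matches on either strand, so that a TATAA match on the opposite strand reads TTATA in Ccl3.

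Ccl3 promoter: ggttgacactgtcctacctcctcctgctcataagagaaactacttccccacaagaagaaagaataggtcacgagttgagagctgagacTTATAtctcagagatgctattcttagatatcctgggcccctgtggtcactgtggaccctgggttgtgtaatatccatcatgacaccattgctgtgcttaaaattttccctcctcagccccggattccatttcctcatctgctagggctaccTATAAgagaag

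Ccr1 promoter: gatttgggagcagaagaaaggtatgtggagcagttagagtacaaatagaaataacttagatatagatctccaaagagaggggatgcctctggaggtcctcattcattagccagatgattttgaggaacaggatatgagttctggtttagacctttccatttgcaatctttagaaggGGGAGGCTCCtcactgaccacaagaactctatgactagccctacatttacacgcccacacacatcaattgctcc

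Of the 5 motifs searched for on either strand, the Ccl3 window held 2 matches, both to TATAA. The match nearest the start, at bases 240 to 244 of the window, ended 7 bases before the RefSeq start and 30 bases before the GENCODE start. The Ccr1 window held 1 match, to the NF-kB consensus, at bases 177 to 186 of the window and 65 bases before the start, and none to the other 4 motifs. The matches do not overlap. TATAA was found in 22.8% of 32851 promoters of the same length. The other motifs were TGANTCA for AP-1 (6.75% of promoters), TTGCNNAA for C/EBP (9.56%), the NF-kB consensus (7.25%) and the interferon-stimulated response element (0.146%). A match describes letters only, and a missing match says only that these letters are not in the window.

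In all, 11316 cell barcodes with 28920316 counts were deposited for imiquimod, and 8054 barcodes with 20837259 counts for Shi-Bi-Man plus imiquimod. After filtering, 11019 and 7863 cells remained, with medians of 1616 and 1780 counts per cell. They fell into 27 clusters and 15 classes named from marker genes, with the members and related genes kept out of the clustering. The caller for doublets, droplets that hold more than 1 cell, marked 0 cells of the imiquimod library and 83 of the Shi-Bi-Man library, so it did not work for the imiquimod library. The libraries shared 49 barcodes. Of the retained cells, 22.8% of the imiquimod and 6.50% of the Shi-Bi-Man cells fell in the T and NK class, and the share in the macrophage and monocyte class was 14.1% and 9.61%.

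Over all retained cells, Ccl3, Ccl4 and Ccr1 were lower and Ccl5 was higher in the Shi-Bi-Man library. Levels are given as CPM, the counts of a gene scaled to a class total of 1000000 counts, and ratios as log2 of Shi-Bi-Man over imiquimod. Ccl3 measured 57.4 CPM after imiquimod alone and 30.9 CPM after both agents, for a log2 ratio of -0.89 (-1.03 to -0.76). For Ccl4 the levels were 124 and 55.8 CPM and the log2 ratio -1.15 (-1.25 to -1.05). Ccr1 showed the largest difference of the 4, from 24.0 to 2.50 CPM, a log2 ratio of -3.25 (-3.71 to -2.86). It rested on 683 counts in 419 cells of the imiquimod library and 51 counts in 35 cells of the Shi-Bi-Man library. Ccl5 went the other way, from 76.1 to 120 CPM, a log2 ratio of 0.66 (0.58 to 0.75). Of 18082 genes with at least 20 counts, 13.7% were past 1.5-fold lower and 15.0% past 1.5-fold higher, where 3 and 1 of the members lay. These sums mix the classes, whose shares differ between the libraries.

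**Figure D1:**
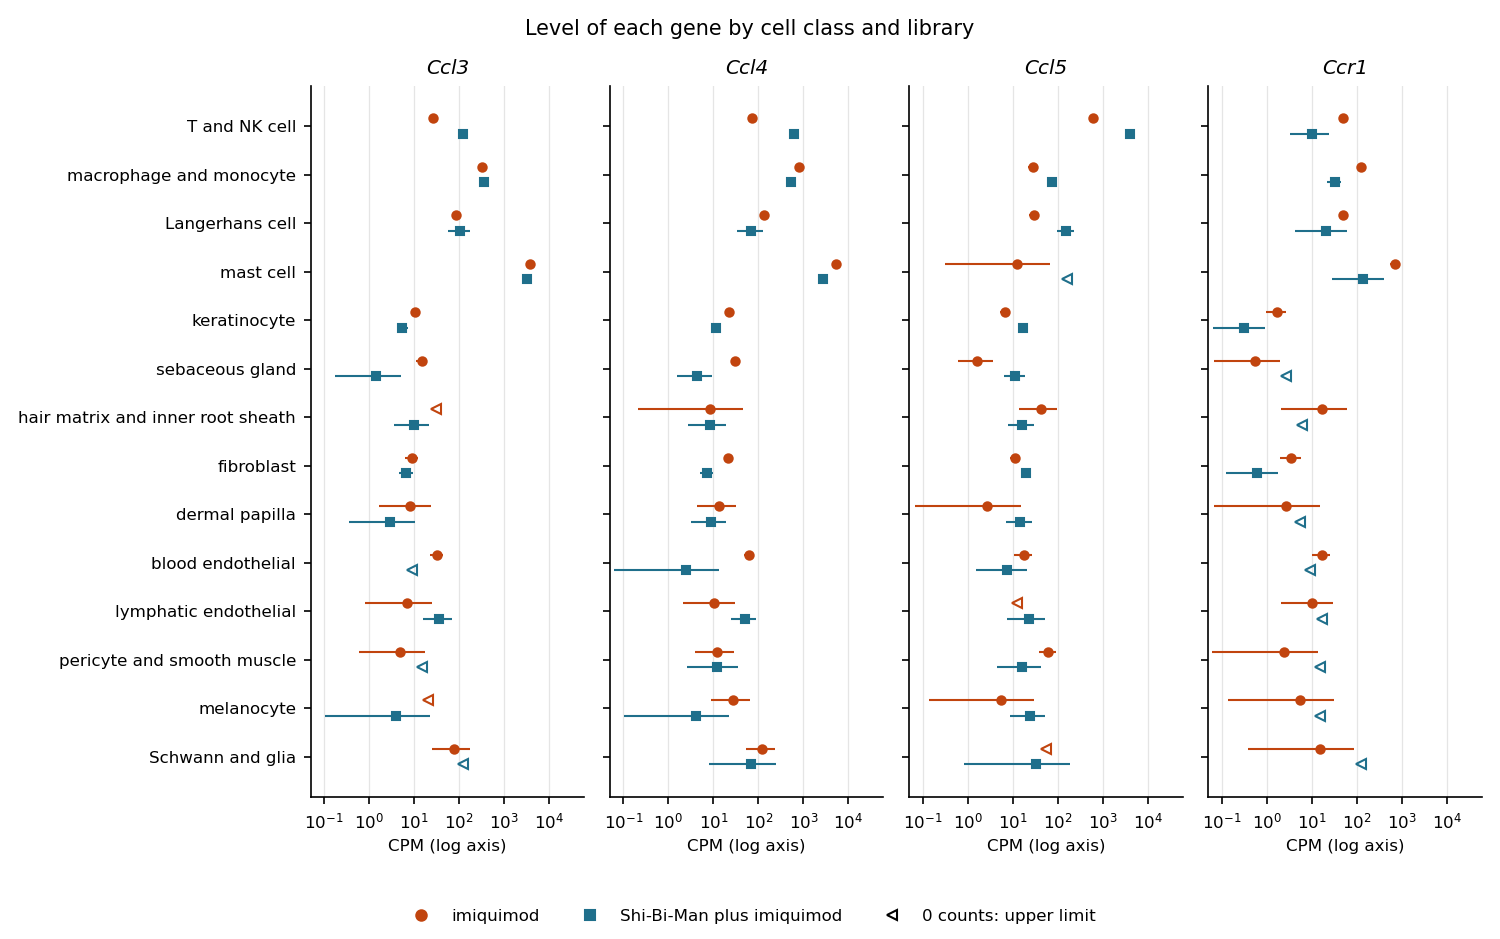
Level of each gene, in CPM of the class total on a log axis, in each named cell class and library, with exact 95% Poisson intervals as bars. Open triangles mark classes with 0 counts at their upper limit. Mast cell-like cells lead for Ccl3 and Ccl4 in both libraries, and T and NK cell-like cells stand at 603 and 4142 CPM for Ccl5.

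Ccl3 was a gene of myeloid and mast cells in both libraries. Macrophage and monocyte-like cells held 51.2% of its counts in the imiquimod library and 59.97% in the Shi-Bi-Man library. Mast cell-like cells, 62 and 18 cells in all, held 18.96% and 11.2%. By level, mast cell-like cells came first, at 3832 and 3173 CPM. Macrophage and monocyte-like cells came next, at 317 and 353 CPM, with intervals that did not overlap those of the mast cell-like cells. In the imiquimod library Langerhans cell-like cells followed at 86.2 CPM and Schwann and glia-like cells at 75.5 CPM, the latter from 5 counts, so their intervals overlapped. After the macrophages of the Shi-Bi-Man library came T and NK cell-like cells at 124 CPM and then Langerhans cell-like cells at 103 CPM, again with overlapping intervals. Fibroblast-like cells, which should lack the ligands, stood at 8.78 and 6.66 CPM.

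Ccl4 was also highest in mast cell-like cells, and the class that came next differed between the libraries. Mast cell-like cells stood at 5332 CPM in the imiquimod library and 2771 CPM in the Shi-Bi-Man library. Macrophage and monocyte-like cells stood at 796 CPM (762 to 830) and 538 CPM (495 to 584). T and NK cell-like cells stood at 72.6 CPM (63.4 to 82.8) and 631 CPM (562 to 705). In the imiquimod library they lay below the Langerhans cell-like cells, at 131 CPM, and in the Shi-Bi-Man library their interval overlapped that of the macrophages. The share of all Ccl4 counts that T and NK cell-like cells held was 6.35% (5.57 to 7.21) in the imiquimod library and 27.2% (24.6 to 29.9) in the Shi-Bi-Man library. Fibroblast-like cells stood at 20.98 and 7.25 CPM.

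Ccl5 lay mainly in 1 class. T and NK cell-like cells held 85.6% of its counts in the imiquimod library and 82.8% in the Shi-Bi-Man library. Their level was 603 CPM and 4142 CPM, and no other class came above 60.6 CPM in the imiquimod library or 151 CPM in the Shi-Bi-Man library. Those runners-up each rested on 1 cell, since 18 of the 25 counts in pericyte and smooth muscle-like cells and 18 of the 22 counts in Langerhans cell-like cells came from a single cell. Macrophage and monocyte-like cells held 3.47% and 3.29% of the Ccl5 counts. Mast cell-like cells held 1 count and 0 counts.

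Ccr1 was carried mainly by myeloid cells. Macrophage and monocyte-like cells held 47.3% of its counts in the imiquimod library and 66.7% in the Shi-Bi-Man library. The T and NK class held 21.5% and 9.80%, Langerhans cell-like cells 13.6% and 5.88%, and mast cell-like cells 8.35% and 5.88%. By level, mast cell-like cells led with 707 CPM in the imiquimod library, followed by macrophages at 123 CPM. Langerhans cell-like cells at 50.1 CPM and T and NK cell-like cells at 47.9 CPM had overlapping intervals. The Shi-Bi-Man library had only 51 Ccr1 counts in all, and the interval of the mast cell-like cells (27.7 to 392 CPM, from 3 counts) overlapped that of the macrophages (22.0 to 44.3 CPM). Neutrophils, known carriers of CCR1, formed no class here. The 10 neutrophil markers summed to 37.8 CPM over all cells of the imiquimod library and 13.1 CPM in the Shi-Bi-Man library, where Ly6g was at 0. The part of neutrophils in the Ccr1 difference was not tested.

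**Figure D2:**
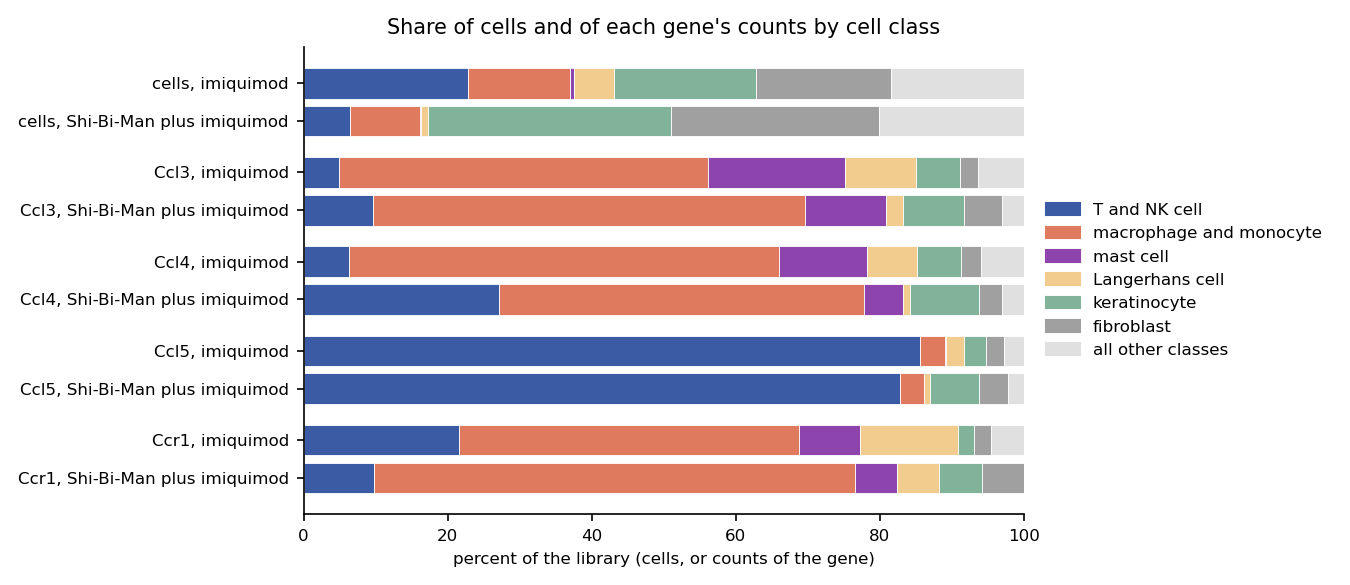
Percent of each library's cells, and of its counts of each gene, by cell class, as stacked bars without intervals. The classes are T and NK, macrophage and monocyte, mast, Langerhans, keratinocyte and fibroblast-like cells, with all other classes together. Ccl5 sits almost wholly in T and NK cell-like cells, at 85.6% and 82.8%, and the T and NK share of Ccl4 is 6.35% in the imiquimod library and 27.2% in the Shi-Bi-Man library.

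In T and NK cell-like cells all 3 ligands were higher and the receptor was lower in the Shi-Bi-Man library. The class held 2515 imiquimod and 511 Shi-Bi-Man cells, with medians of 1008 and 779 counts per cell. Ccl3 went from 26.4 to 124 CPM, from 81 and 61 counts, a log2 ratio of 2.24 (1.73 to 2.73). Ccl4 had a log2 ratio of 3.12 (2.87 to 3.37), from 223 and 310 counts. Ccl5 had a log2 ratio of 2.78 (2.69 to 2.87), from 1851 and 2036 counts. Ccr1 went from 47.9 to 10.2 CPM, a log2 ratio of -2.10 (-3.88 to -0.98), with only 5 counts in the Shi-Bi-Man library. Of 10490 genes with at least 20 counts in this class, 19.4% were past 1.5-fold higher and 16.2% past 1.5-fold lower, where 3 and 1 of the members lay. Since these contrasts helped to choose the members, nothing is read from that count.

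The same order was seen in the share of cells with a count, after every cell was thinned to 500 counts. Ccl3 was found in 1.19% (0.81 to 1.70) of T and NK cell-like cells of the imiquimod library and 3.72% (2.25 to 5.75) of those of the Shi-Bi-Man library. Before thinning the shares were 1.91% and 5.28%. Ccl4 was found in 2.27% (1.72 to 2.93) and 7.24% (5.15 to 9.84), against 3.46% and 9.39% before thinning. Ccl5 was found in 6.04% (5.14 to 7.05) and 15.3% (12.3 to 18.7), against 7.16% and 16.4% before thinning. Ccr1 was found in 1.91% (1.41 to 2.52) and 0.39% (0.05 to 1.41), against 4.14% and 0.78% before thinning. In fibroblast-like cells, with medians of 1959 and 2080 counts, the thinned shares were 0.34% and 0.31% for Ccl3, 1.21% and 0.44% for Ccl4, 0.68% and 0.57% for Ccl5, and 0% and 0.09% for Ccr1. No cell was left out at 500 counts.

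A few cells carried most of the Ccl4. In the Shi-Bi-Man library 4 cells held 50% of the Ccl4 counts of the class and 1 cell alone held 97 of 310. In the imiquimod library 14 cells held 50%, and the highest single cell had 20 of 223. Ccl5 was less bunched, with 50% of the counts in 22 cells of the imiquimod library and 13 of the Shi-Bi-Man library. Without the 5 cells of each library with the most counts, the log2 ratio of Ccl4 was 2.49 and that of Ccl5 was 2.68.

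**Figure D3:**
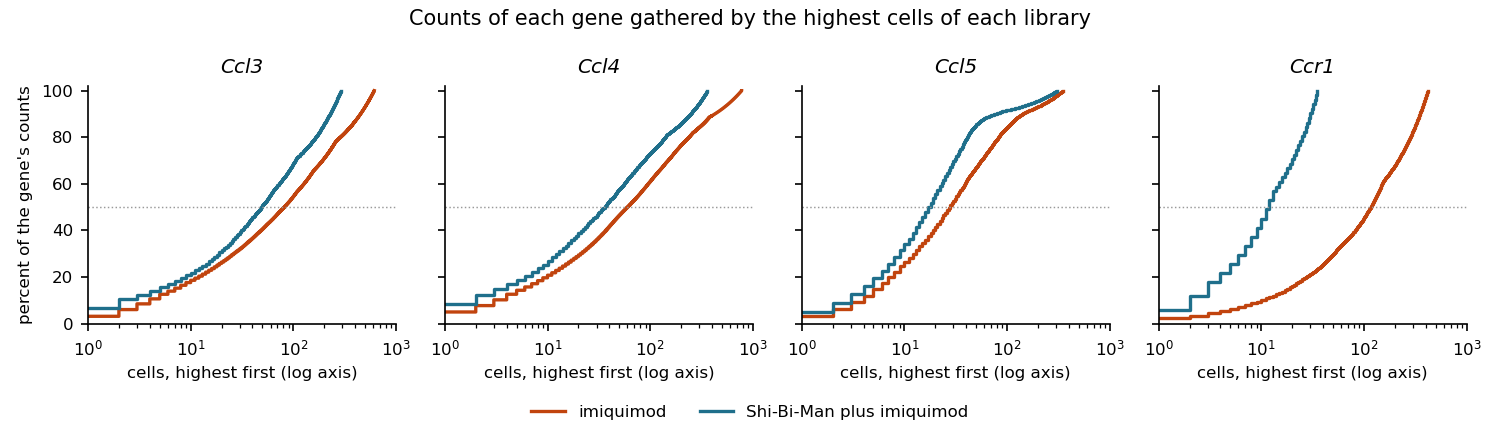
Running percent of the counts of each gene against the number of cells, over all retained cells of each library. Cells are ranked from the cell with the most counts, on a log axis. The top 10 cells hold 26.8% of all Ccl4 counts in the Shi-Bi-Man library and 20.8% in the imiquimod library.

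The make-up of the class differed between the libraries as well. IL-17-type gamma delta T-like cells, the interleukin-17 producers of mouse skin, were 61.2% of the class in the imiquimod library and 38.6% in the Shi-Bi-Man library. NK-like cells were 0.44% and 4.31%, alpha beta T-like cells 10.5% and 15.7%, and dendritic epidermal-type gamma delta T-like cells 4.65% and 23.7%. With both libraries weighted to the imiquimod mix of the 13 sub-clusters, the Shi-Bi-Man levels were 42.6 CPM for Ccl3, 155 CPM for Ccl4, 1354 CPM for Ccl5 and 21.9 CPM for Ccr1. The log2 ratios then were 0.69, 1.09, 1.17 and -1.13. Each kept its sign, and each was smaller than the ratio of the unweighted class. Without the NK-like cells, an alternative chosen after seeing the data, the log2 ratios were 1.38 for Ccl3, 1.51 for Ccl4 and 2.19 for Ccl5.

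NK-like cells had the highest level of each ligand among the named T and NK subsets. There were 11 with imiquimod and 22 with Shi-Bi-Man added, too few for a ratio. Ccl5 was found in all of them, at 36288 CPM (32758 to 40095) and 37366 CPM (35110 to 39729), with medians of 30 and 42.5 counts per cell. The 2 intervals overlapped. Ccl4 was found in 6 of 11 and 16 of 22 cells, at 1692 CPM (1003 to 2674) and 8117 CPM (7084 to 9258), and 1 cell gave 97 of the 222 Ccl4 counts of the Shi-Bi-Man library. Ccl3 was found in 2 of 11 and 9 of 22 cells, at 376 CPM (102.5 to 963) and 1133 CPM (770 to 1609). Ccr1 had 0 counts in both libraries, which allows a share of cells with a count of up to 27.3% and 13.6% (3 of the cells). This limits cells with a count, not cells that express the gene. In the imiquimod library these cells held 8.07% of the Ccl4 counts of the whole T and NK class, and in the Shi-Bi-Man library 71.6%. For Ccl5 they held 20.9% and 50.2%. The NK marker Ncr1 had 0 counts in the 11 cells and 9 counts in the 22 cells. The T cell marker Cd3g stood at 940 CPM in the 11 cells, beside 889 CPM in alpha beta T-like cells of the same library, and at 219 CPM in the 22 cells. Il17a, the gene of IL-17-type T cells, had 9 counts in the 11 cells and 0 counts in the 22 cells. The part of T cells in the NK-like levels was not tested.

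Alpha beta T-like cells, named from Trac, Trbc2, Cd4, Cd8a and other markers, carried all 3 ligands and almost no receptor. There were 263 of them with imiquimod and 80 with Shi-Bi-Man added. Ccl5 went from 4972 CPM (4695 to 5261) to 14238 CPM (13355 to 15165), for which the log2 ratio was 1.52 (1.39 to 1.64). The gene was found in 34.6% (28.9 to 40.7) and 57.5% (45.9 to 68.5) of the cells. Ccl4 went from 380 to 1016 CPM, a log2 ratio of 1.42 (0.95 to 1.88), and Ccl3 from 99.2 to 236 CPM, a log2 ratio of 1.26 (0.24 to 2.22). With a sub-cluster resolution of 0.5 the ratios were 2.92 for Ccl4, 2.14 for Ccl3 and 1.68 for Ccl5. Ccr1 had 1 count in the imiquimod library and 0 in the Shi-Bi-Man library. The 3 ligands passed the minimum of 20 counts, and all lay past 1.5-fold higher, as did 15.4% of 2733 genes. None lay past 1.5-fold lower, where 20.2% of genes did. Of the 9 NK markers, 5 had a count in each library, and the list summed to 686 and 1576 CPM in these cells, with Ncr1, Klrb1c and Klra8 at 0 in both. Gzma, which the NK list holds, is also made by T cells. The part of NK cells in these ratios was not tested.

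Among alpha beta T-like cells, Ccl5 and Ccl4 were found in a larger share of the cells with a Cd8 count than of those with a Cd4 count. This split was chosen after the values were seen. Cells with a count of Cd8a or Cd8b1 and none of Cd4 numbered 64 with imiquimod and 15 with Shi-Bi-Man added. Ccl5 was found in 41 (64.1%, 51.1 to 75.7) and 13 (86.7%, 59.5 to 98.3) of them. Cells with a count of Cd4 and none of Cd8a or Cd8b1 numbered 30 and 7. Ccl5 was found in 0 of the 30, which allows a share of cells with a count of up to 10% (3 of the cells), and in 2 of the 7. Ccl4 was found in 20 of 64 and 6 of 15 of the Cd8 cells, and in 1 of 30 and 0 of 7 of the Cd4 cells. The larger remainder, 169 and 58 cells with no count of either, had Ccl5 in 50 and 31 cells. It held 668 and 689 Ccl5 counts, more than the 535 and 273 of the Cd8 cells, at 4323 and 14629 CPM. Its Ccl4 stood at 304 CPM (224 to 405) and 1189 CPM (898 to 1544), beside 780 CPM (567 to 1047) and 896 CPM (477 to 1531) in the Cd8 cells. In the Cd8 cells alone, Ccl5 stood at 9487 CPM in the imiquimod library and at 18806 CPM in the Shi-Bi-Man library.

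IL-17-type gamma delta T-like cells, the most numerous T cells of the imiquimod library, had low ligand levels. They numbered 1539 and 197. With 61.2% of the class's cells in the imiquimod library, they held 27.2% of its Ccl3 counts, 14.8% of its Ccl4 counts, 2.38% of its Ccl5 counts and 63.9% of its Ccr1 counts. In the Shi-Bi-Man library they held 1 of its 5 Ccr1 counts. Ccr1 went from 55.6 to 5.45 CPM, from 94 counts to 1 count, a log2 ratio of -2.77 (-8.67 to -0.84). The receptor was found in 72 of 1539 and 1 of 197 cells. Ccl5 went from 26.0 to 191 CPM, a log2 ratio of 2.88 (2.19 to 3.55), with 19 of the 35 Shi-Bi-Man counts in 1 cell. It was -0.072 with 20 components, 0.18 with doublets kept and 0.35 with at least 500 genes per cell, and Ccr1 was -0.68 with doublets kept. Ccl4 went from 19.5 to 76.3 CPM, a log2 ratio of 2.0 (0.95 to 2.91), and Ccl3 from 13.01 to 32.7 CPM, a log2 ratio of 1.41 (-0.26 to 2.68). With at least 500 genes per cell these were 0.95 and 0.65. The members lay past 1.5-fold higher in 3 cases and lower in 1, beside 24.4% and 19.9% of 8308 genes. After thinning, the shares with Ccl3, Ccl4 and Ccl5 in the imiquimod library were 0.58%, 0.84% and 0.97%. Their intervals (0.27 to 1.11, 0.45 to 1.44 and 0.55 to 1.6) hold the shares of the fibroblast-like cells given above, so these are read as background. The thinned shares in the Shi-Bi-Man library were 1.02%, 2.03% and 3.05%, from 2, 4 and 6 cells.

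The other T subsets held few counts. Dendritic epidermal-type gamma delta T-like cells, the resident lymphocytes of mouse epidermis, numbered 117 and 121, so their weight in the class was much larger in the Shi-Bi-Man library. They held 1 and 4 counts of Ccl3, 0 and 1 of Ccl4, 2 and 1 of Ccl5, and none of Ccr1. Regulatory T-like cells, 83 and 35 in number, held 32 and 8 counts of Ccl5, a log2 ratio of -0.47 (-1.86 to 0.61) that became 1.53 with at least 500 genes per cell. Cycling T-like cells, 192 and 11 in number, carried Ccr1 at 88.1 CPM (62.4 to 121) and 133 CPM (27.5 to 390). Together with the IL-17-type cells they account for most lymphoid Ccr1, with 38 and 94 of 147 counts in the imiquimod library. A sub-cluster that kept no name, led by Gzmc, Itga1 and Cd160 and 188 and 15 cells in size, held 134 and 2 counts of Ccl5 and 67 and 0 counts of Ccl4.

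**Figure D4:**
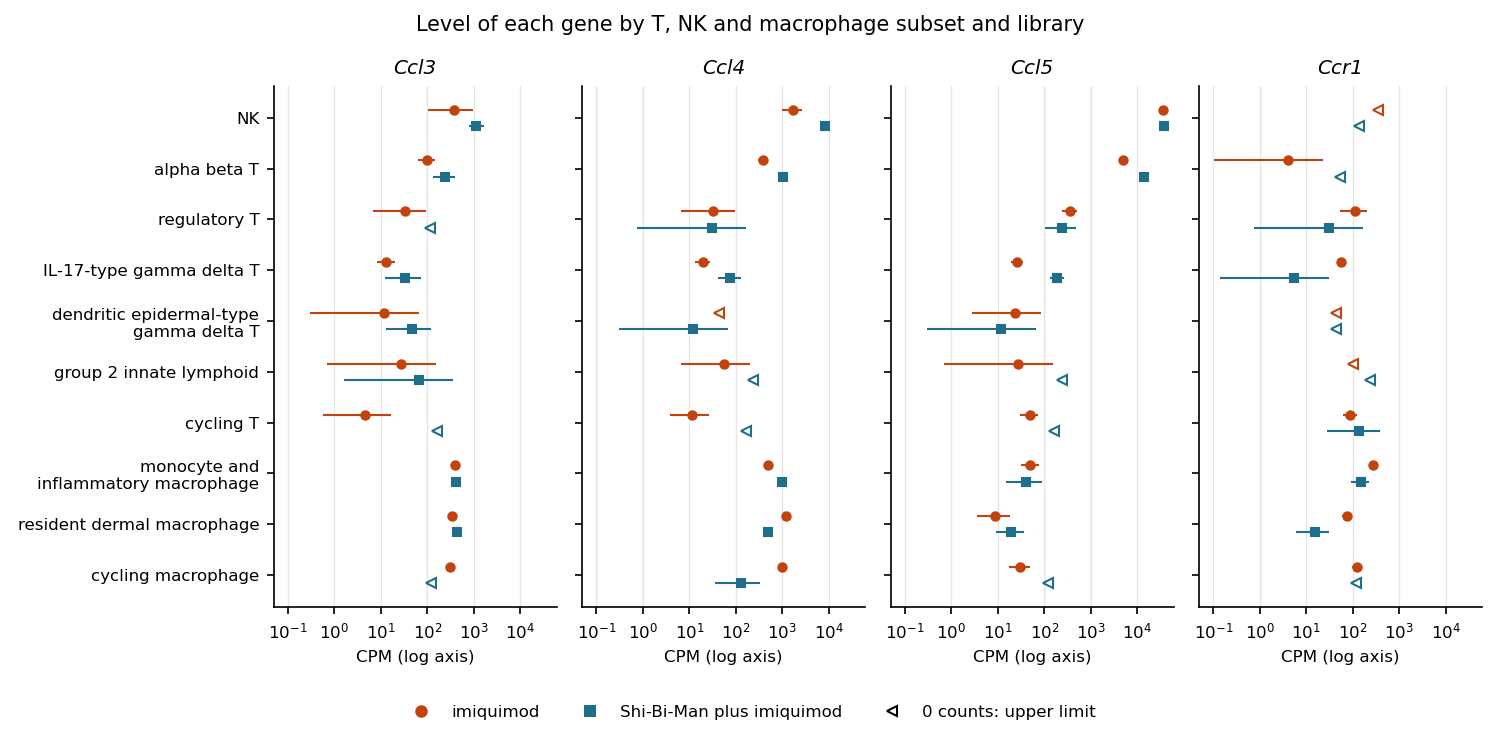
Level of each gene, in CPM on a log axis, in the named subsets of T and NK cell-like and of macrophage and monocyte-like cells, by library, with exact 95% Poisson intervals. NK-like cells lead for Ccl5 at 36288 and 37366 CPM, and the monocyte and inflammatory macrophage-like cells stand highest for Ccr1 at 267 and 148 CPM. In the Shi-Bi-Man library their Ccr1 interval overlaps that of the cycling T-like cells.

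Ccl4 and Ccl5 were often found in the same cells of the T and NK class. After thinning, Ccl5 was present in 34 of 57 cells with Ccl4 (59.6%, 45.8 to 72.4) in the imiquimod library and in 4.80% of the cells without Ccl4. In the Shi-Bi-Man library it was present in 27 of 37 cells with Ccl4 (73.0%, 55.9 to 86.2) and in 10.8% of the rest. Ccl3 and Ccl4 also met, with Ccl3 in 13 of 57 and 12 of 37 cells with Ccl4, against 0.69% and 1.48% of the rest. Before thinning, Ccr1 met none of the 48 cells with Ccl3 in the imiquimod library, against 4.22% of the rest. It met 2 of the 87 cells with Ccl4, against 4.20% of the rest. The intervals (0 to 7.40 and 0.28 to 8.06) hold the shares of the rest, so no difference is read from them. Cells of 1 library share their source, so these shares describe each library.

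In macrophage and monocyte-like cells the 3 ligands did not differ in 1 direction. The class held 1556 and 756 cells, with medians of 1405.5 and 1233 counts per cell. Ccl3 stood at 317 CPM (296 to 339) and 353 CPM (319 to 391), a log2 ratio of 0.16 with an interval that spans 0 (-0.02 to 0.33). Ccl4 went from 796 to 538 CPM, a log2 ratio of -0.56 (-0.70 to -0.43). Ccr1 went from 123 to 31.7 CPM, a log2 ratio of -1.93 (-2.51 to -1.44), from 323 and 34 counts. Ccl5 went from 28.5 to 75.5 CPM, a log2 ratio of 1.41 (0.94 to 1.88), with 37 of the 81 Shi-Bi-Man counts in 1 cell. Ccl5 lay past 1.5-fold higher, with 13.7% of 10510 genes, and Ccr1 past 1.5-fold lower, with 11.4%, and Ccl3 and Ccl4 lay between.

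The share of cells with the receptor differed as well. After thinning, Ccr1 was found in 5.78% (4.68 to 7.06) of the imiquimod macrophages and 1.46% (0.73 to 2.59) of the Shi-Bi-Man macrophages, and before thinning in 12.5% and 2.78%. Ccl3 was found in 11.2% (9.66 to 12.8) and 10.6% (8.48 to 13), and before thinning in 21.3% and 20.9%. Ccl4 was found in 15.7% (13.9 to 17.6) and 13.9% (11.5 to 16.6), and before thinning in 23.4% and 20.4%. Ccl5 was found in 0.71% (0.35 to 1.26) and 1.06% (0.46 to 2.07), which is not distinguishable from the 0.68% and 0.57% of fibroblast-like cells at this depth. All 15 T and NK cell markers had counts in the macrophage class of both libraries, summing to 382 and 171 CPM, and their part in the Ccl5 counts was not tested. Among macrophages with no count of Cd3d, Cd3e or Cd3g, the log2 ratio of Ccl5 was 0.43. Without the sub-clusters that kept no name it was -0.089, and without the 5 cells with the most counts it was 0.61.

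Resident macrophages had less Ccl4 in the Shi-Bi-Man library. Resident dermal macrophage-like cells, named from Mrc1, Cd163, Folr2 and other markers, numbered 525 and 339. Ccl4 went there from 1181 CPM (1106 to 1259) to 497 CPM (434 to 565), a log2 ratio of -1.25 (-1.46 to -1.04). After thinning, Ccl4 counts were present in 20.8% (17.4 to 24.5) and 11.5% (8.31 to 15.4) of the cells. Ccl3 in the same cells went from 340 to 427 CPM, a log2 ratio of 0.33 (0.06 to 0.60), which became -0.054 when the members and lists were allowed in the clustering. Ccr1 went from 75.5 to 15.2 CPM, a log2 ratio of -2.23 (-3.69 to -1.18). Ccl5 had 7 and 9 counts and did not reach the minimum of 20. Ccl4 and Ccr1 lay past 1.5-fold lower, with 12.2% of 7200 genes, and none of the members past 1.5-fold higher, where 13.6% of genes lay. One sub-cluster with Lyve1, Timd4 and the interferon-induced Ifit3 held 652 of the 938 Ccl4 counts of the imiquimod library, at 2046 CPM there and 1032 CPM in the Shi-Bi-Man library, a log2 ratio of -0.98 (-1.29 to -0.69).

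Monocyte and inflammatory macrophage-like cells, 269 and 82 in number, went the other way for Ccl4. It stood at 493 CPM (429 to 563) and 963 CPM (812 to 1135), a log2 ratio of 0.97 (0.65 to 1.28). Ccl3 stood at 386 and 418 CPM (log2 ratio 0.12, -0.33 to 0.54). These cells had the highest Ccr1 level of the named macrophage subsets, 267 CPM (221 to 320) and 148 CPM (92.9 to 224), a log2 ratio of -0.82 (-1.58 to -0.18). Ccl4 lay past 1.5-fold higher, with 14.3% of 4158 genes, and Ccr1 past 1.5-fold lower, with 21.4%. The subset joined unlike cells. The part with Ly6c2, Vcan and Chil3, markers of blood-derived monocytes, had 144 and 19 cells. It carried Ccr1 at 512 CPM (413 to 628) and 418 CPM (191 to 793), with overlapping intervals. Its Ccl4 was 156 and 0 counts, so Ccl4 was not higher there in the Shi-Bi-Man library, and with 19 cells no ratio was formed. The part with Mmp12, Fn1 and Ear2 had 81 and 56 cells. Its Ccr1 stood at 114 and 106 CPM (log2 ratio -0.07, -1.19 to 0.92), whereas its Ccl4 went from 187 to 1136 CPM, a log2 ratio of 2.59 (2.09 to 3.14). This part held 139 of the 143 Ccl4 counts of the subset in the Shi-Bi-Man library. Its Ccl3 went from 68.3 to 400 CPM, a log2 ratio of 2.52 (1.69 to 3.49).

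**Figure D5:**
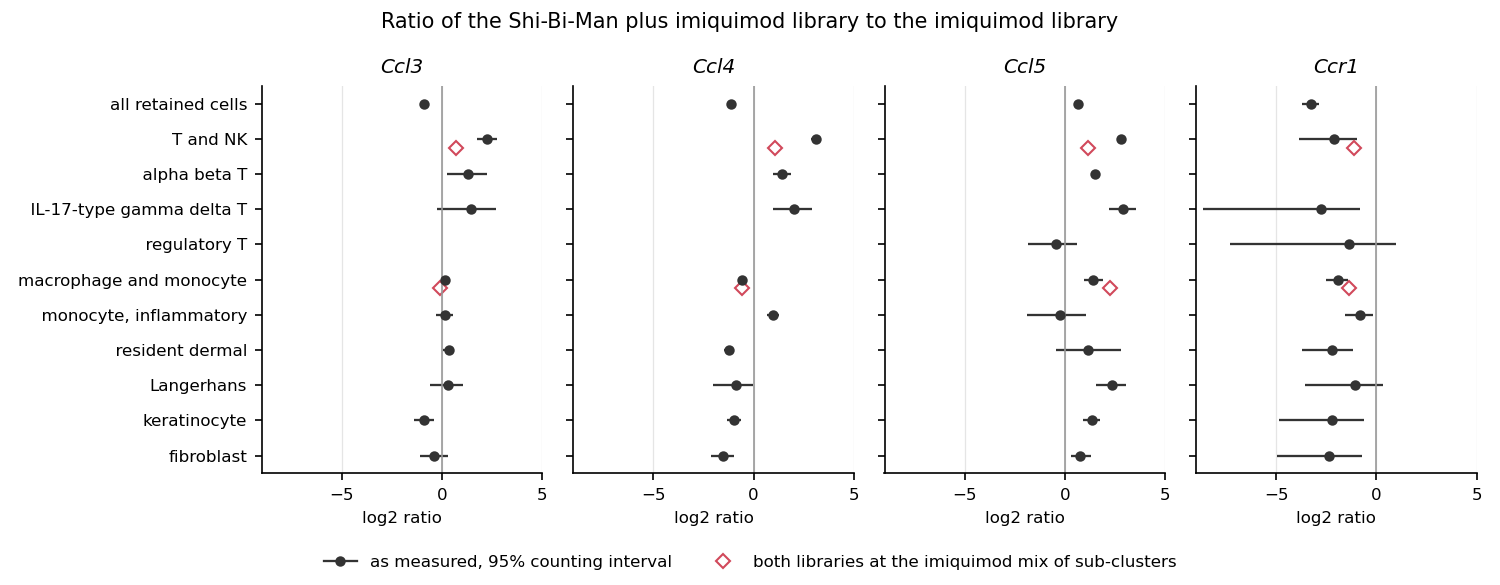
Log2 ratio of Shi-Bi-Man over imiquimod for each gene, with exact 95% intervals. Drawn are all retained cells and chosen classes and subsets with at least 30 cells in each library. Endothelial, sebaceous gland and some other classes with that many cells are left out, as are ratios with 0 counts in a library. Open red diamonds give the ratio with both libraries at the imiquimod mix of sub-clusters. Ccr1 lies left of 0 in each class drawn, and Ccl4 lies right of 0 for the T and NK class (3.12) and left of 0 in resident dermal macrophage-like cells (-1.25).

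Weighting the macrophages to the imiquimod mix of 14 sub-clusters gave log2 ratios of -0.13 for Ccl3, -0.58 for Ccl4, 2.23 for Ccl5 and -1.37 for Ccr1. Ccl4 was found more often in macrophages with Ccl3 than in those without it. After thinning, Ccl4 was present in 70 of 174 macrophages with Ccl3 (40.2%, 32.9 to 47.9) in the imiquimod library and in 12.6% of those without it. In the Shi-Bi-Man library it was present in 26 of 80 (32.5%, 22.4 to 43.9) and in 11.7% of the rest. Ccr1 was present in 10.3% of the imiquimod macrophages with Ccl3 and in 5.21% of those without, with intervals of 6.25 to 15.9 and 4.10 to 6.52. Before thinning these shares were 14.2% and 12.0%. In the thinned Shi-Bi-Man library Ccr1 was in 0 of 80 macrophages with Ccl3 (0 to 4.51%) and in 1.63% of those without.

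Mast cell-like cells had the highest Ccl3, Ccl4 and Ccr1 levels of all classes in the imiquimod library, from few cells. All 10 mast cell markers supported their name, and Cma1, a mast cell chymase, stood at 12078 and 12245 CPM. Ccl3 was found in 26 of 62 cells of the imiquimod library and 4 of 18 of the Shi-Bi-Man library. Ccl4 was found in 23 of 62 and 5 of 18, and Ccr1 in 17 of 62 and 3 of 18. With 18 cells no ratio was formed, and 1 cell held 42 of the 71 Ccl3 counts of the Shi-Bi-Man library. Ccl3 and Ccl4 were often found in the same mast cells. In the imiquimod library Ccl4 was found in 20 of the 26 cells with Ccl3 (76.9%, 56.4 to 91.0) and in 3 of the 36 without it. Ccr1 was found in 15 of the 26 cells with Ccl3 and in 2 of the 36 without it. The macrophage marker list summed to 3844 CPM in these cells of the imiquimod library, with 12 of 13 markers present and Ms4a7 at 0, and to 626 CPM in the Shi-Bi-Man library, with 6 of 13 present. Retnlg, one of the neutrophil markers, was among the 10 genes that led this cluster. The haemoglobin gene Hba-a1 stood at 13417 CPM in these cells of the imiquimod library and at 44.7 CPM in those of the Shi-Bi-Man library. The part of macrophage, neutrophil or red cell transcripts in the mast cell levels was not tested.

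Langerhans cell-like cells, the antigen-presenting cells of the epidermis, numbered 612 and 70. Ccl3 stood at 86.2 and 103 CPM (log2 ratio 0.30, -0.61 to 1.02), and Ccl4 at 131 and 68.8 CPM (log2 ratio -0.86, -2.01 to -0.02). Ccr1 went from 93 counts to 3 counts, a log2 ratio of -1.06 (-3.58 to 0.31). Ccl5 had a log2 ratio of 2.35 (1.54 to 3.06), with 18 of the 22 Shi-Bi-Man counts in 1 cell. Ccl5 lay past 1.5-fold higher, with 20.5% of 7804 genes, and Ccl4 and Ccr1 past 1.5-fold lower, with 26.4%. In blood endothelial-like cells Ccl3 had 38 and 0 counts, at least 4.35-fold lower in the Shi-Bi-Man library against a floor of 3 counts, with 19 of the 38 counts in 1 cell. A single sebaceous gland-like cell of the imiquimod library gave 84 of the 108 Ccl4 counts of its class.

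Keratinocyte-like and fibroblast-like cells gave low levels. In keratinocyte-like cells Ccl3 went from 10.2 to 5.43 CPM, Ccl4 from 21.8 to 11.2 CPM and Ccl5 from 6.75 to 17.0 CPM. Ccl5 lay past 1.5-fold higher, with 14.2% of 14330 genes, and Ccl3 and Ccl4 past 1.5-fold lower, with 12.2%. The make-up of this class differed, with 714 and 11 inflamed cells, and 33 and 930 cells in the larger suprabasal cluster. By type, the Ccl4 log2 ratio was -0.70 (-1.63 to 0.39) in basal and 0.50 (-0.65 to 1.44) in upper hair follicle cells. It was -0.75 (-1.79 to 0.20) in follicle stem and outer root sheath cells and -2.20 (-3.33 to -0.59) in suprabasal cells. In fibroblast-like cells Ccl4 had a log2 ratio of -1.52 (-2.12 to -0.97) and Ccl5 one of 0.77 (0.28 to 1.28), beside 10.5% of 13015 genes past 1.5-fold lower and 9.64% past 1.5-fold higher. These counts were not spread evenly over the cells. Of 99 Ccl5 counts in fibroblast-like cells of the Shi-Bi-Man library, 51.5% lay in 4 cells, and 60 of 213 Ccl4 counts in keratinocyte-like cells of the imiquimod library lay in 1 cell. Where these counts came from was not tested. Ccr1 was lower in the Shi-Bi-Man library in each of the 6 classes in which a ratio could be formed, with an interval that spans 0 in Langerhans cell-like cells.

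Other genes of the pathway gave the members their setting, from lists chosen with earlier results of these data known. The other mouse ligands of CCR1 are Ccl6, Ccl7 and Ccl9, which macrophages make. In macrophage and monocyte-like cells, where 13.7% of all genes were past 1.5-fold higher and 11.4% lower, none of the 3 was past either. Ccl6 stood at 1371 and 1230 CPM, Ccl7 at 1341 and 1624 CPM and Ccl9 at 349 and 414 CPM. Of 8 measured other CC ligands, 4 were higher, 1 was lower and 3 lay between. Among the 4, Ccl22, a chemokine made by dendritic cells and macrophages, had a log2 ratio of 2.26 (1.59 to 2.98). Ccl12, a monocyte attractant, went from 210 to 431 CPM, a log2 ratio of 1.04 (0.86 to 1.22), and Ccl11, eotaxin, had a log2 ratio of 1.12 (0.37 to 1.86). A sub-cluster of this class that kept no name had 100 and 66 cells. Among its leading genes were Ccr7 and the dendritic cell markers Flt3 and Cd209a. Its part in the Ccl22 ratio, and in the Ccr7 ratio given below, was not tested. In resident dermal macrophage-like cells Ccl8, a further CC ligand, went from 5500 to 17734 CPM, a log2 ratio of 1.69 (1.64 to 1.74), in the cells in which Ccl4 was lower.

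Of 8 other CC receptors, 2 reached 20 counts in the macrophage class, and neither was past 1.5-fold lower. Ccr2, the receptor that brings monocytes out of the blood, stood at 308 and 278 CPM (log2 ratio -0.15, -0.35 to 0.04), and Ccr7 had a log2 ratio of 0.84 (0.21 to 1.45). Over all retained cells 5 of 7 measured receptors were lower, beside 13.7% of genes, with a median of -1.63, among them Ccr2 (-1.63) and Ccr7 (-2.24). In the resident cells Ccr2 went from 106 to 30.4 CPM, a log2 ratio of -1.76 (-2.73 to -0.97). Of 11 measured genes of chemokine receptor signalling, 4 were lower, beside 11.4% of all genes, and 7 lay between. The 4 were Rac2, a small GTPase of leukocytes (log2 ratio -1.11), Rgs1, which shortens G protein signals (-0.94), the inhibitory G protein subunit gene Gnai2 (-0.66) and the arrestin gene Arrb2 (-0.61). The median of that list was -0.02, beside 0.02 over all 10510 genes. Mmp9, a protease that can cut chemokines, had 95 and 3 counts, a log2 ratio of -3.47 (-5.99 to -2.10). Of 14 NF-kB and immediate early genes, which respond to the signals that switch on Ccl3 and Ccl4, 1 was higher, Egr3 (1.12), beside 13.7% of all genes, and 13 lay between.

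In T and NK cell-like cells the genes secreted beside the 3 ligands by activated lymphocytes were higher as a list, 5 of 5 measured, with a median log2 ratio of 1.24 beside 0.04 over all 10490 genes, of which 19.4% were past 1.5-fold higher and 16.2% lower. Ifng, encoding interferon gamma, went from 39.4 to 157 CPM, a log2 ratio of 2.0 (1.56 to 2.42). Xcl1, a chemokine for cross-presenting dendritic cells, went from 270 to 926 CPM, a log2 ratio of 1.78 (1.61 to 1.94). The growth factor gene Csf2 had a log2 ratio of 1.24 (0.81 to 1.64) and Il2 one of 1.19 (0.20 to 2.04). Of 6 cytotoxic granule genes, 4 were higher, 1 was lower and 1 lay between, with a median of 1.62. Prf1, encoding the pore-forming protein perforin, had a log2 ratio of 1.92 (1.42 to 2.40), Gzmb 1.59 (1.24 to 1.93) and Nkg7 1.64 (1.51 to 1.76). Of 7 transcription factors of cytotoxic and type 1 lymphocytes, 4 were higher and none lower, among them Tbx21, encoding T-bet, at 0.92 (0.28 to 1.48). Gzma, Prf1, Xcl1, Nkg7 and Gzmb are also markers by which subsets were named, so these lists are not independent of the mix of cells described above.

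Within the alpha beta T-like cells, where 15.4% of genes were past 1.5-fold higher and 20.2% lower, 2 of 3 measured genes of the secreted list were higher and 1 was lower. Of the cytotoxic granule genes 2 of 4 were higher and of the transcription factors 4 of 6, with none lower. Ifng went from 223 to 839 CPM, a log2 ratio of 1.91 (1.35 to 2.48), and Gzma from 566 to 1384 CPM, a log2 ratio of 1.29 (0.90 to 1.68). Xcl1 went from 397 to 103 CPM, a log2 ratio of -1.85 (-3.30 to -0.85), the opposite sign to the whole class. Nkg7 stood at 1909 and 2194 CPM (log2 ratio 0.20, -0.08 to 0.47). Of the 14 NF-kB and immediate early genes, 12 lay between in the whole class and 11 in the alpha beta T-like cells, where 1 was higher and 2 were lower. Of 6 other CC receptors in the whole class, 5 lay between and 1 was higher, Ccr8, a receptor of skin T cells (1.21, 0.61 to 1.76). Ccr6, the receptor of IL-17-type cells, had a log2 ratio of -0.52 (-0.96 to -0.13).

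Of the genes that rise when tissue is dissociated, 3 of 12 were higher in the T and NK class, beside 19.4% of all its genes, the level of Hspa1a being 191 and 425 CPM and that of Hspa1b 173 and 472 CPM. The macrophage class also had 3 of 12 higher, beside 13.7% of all its genes, among them Hspa1a (384 and 883 CPM). The haemoglobin gene Hba-a1 had levels of 2432 and 1084 CPM in the T and NK class, and of 948 and 48.5 CPM in the macrophage class. The part of handling or of red cell RNA in the member ratios was not tested.

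Across 46 cluster and library sums of at least 50 cells, the patterns of Ccl3 and Ccl4 were close (Pearson r = 0.931 of log2 CPM plus 10), and both were close to that of Ccr1 (0.821 and 0.801). Ccl5 stood apart from Ccl3 (0.383), Ccl4 (0.463) and Ccr1 (0.175). Among 11232 genes, those most like Ccl3 were Plek (0.916), Osm (0.907) and Myo1f (0.881), all known from leukocytes. Those most like Ccl4 were Osm (0.885), Il10 (0.878) and Tyrobp (0.875). Those most like Ccl5 were Klrg1 (0.913), Ifng (0.893) and Gzma (0.886), genes of effector lymphocytes. Those most like Ccr1 were Osm (0.898), Clec4d (0.886) and Cyp4f18 (0.859). The points share their libraries and depths, so r is a description.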

How the data were processed

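Single-cell 3' RNA libraries of dorsal skin were measured, 1 for imiquimod and 1 for Shi-Bi-Man plus imiquimod, with the group taken from the treatment label. The authors deposited a matrix of raw counts per gene and cell for each library, per the file headers and the whole-number values. Builds mm10 and GRCm38 are named per the submitters' processing notes. The aligner and the counter are not given in the sources used here, nor whether the counts are of unique molecules. Each library held 11316 and 8054 barcodes with at least 500 counts each.

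From these counts, cells with fewer than 200 genes (192 and 7) or over 20% mitochondrial counts (105 and 101) were left out, and Scrublet doublet calls (0 and 83) were removed. Cells were clustered with scanpy 1.11.5 and leidenalg 0.10.2 (Python 3.11.15) from 2000 variable genes, 30 components, 15 neighbours and resolution 1. The members, the other chemokine and receptor genes and the lists of activation genes (52 genes) were kept out. A cluster took the name of a class when at least 3 of its markers were 2-fold over the other clusters and found in at least 10% of its cells. Of 2 rules in the naming, 1 compares sub-clusters with the equally weighted mean of the others and 1 sets how many markers of another class bar a name. Both were set after seeing the data.

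CPM has an exact Poisson interval, shares have exact Clopper-Pearson intervals, and log2 ratios add 0.5 to each count and have an exact conditional binomial interval (scipy 1.17.1). Ratios need 30 cells in each library, list counts need 20 counts, and a fold against 0 counts uses a floor of 3 counts. edgeR 4.0.16 and DESeq2 1.42.0 (R 4.3.3) gave scaling factors only, and no test was run. Only the log2 ratios and their intervals were tested on simulated data, with Poisson counts of whole libraries. Filtering, clustering, naming, thinning and the bunching of counts in few cells were not simulated. Gene positions are from GENCODE release 21 of the mouse (55144 of 55471 entries matched by identifier), and promoters from RefSeq, where 2 of the 4 members matched.

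The genes named are the 4 members, up to 4 genes of each list with the largest ratio in a class, and the 3 genes closest to each member by Pearson correlation. The members and lists were chosen with earlier results of these data known. Other settings tried are in the closing section.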

Additional observations from a re-analysis of the deposited data

Results flagged for a closer look

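Ccl4 had opposite directions in the T and NK class and in the macrophage and monocyte class. Its log2 ratio of Shi-Bi-Man over imiquimod was 3.12 (2.87 to 3.37) in T and NK cell-like cells and -0.56 (-0.70 to -0.43) in macrophage and monocyte-like cells, a difference of 3.68. The difference was not tested, since each group is 1 library. In the T and NK class 97 of the 310 Shi-Bi-Man counts came from 1 NK-like cell. At the imiquimod mix of sub-clusters the ratios were 1.09 and -0.58, so the signs stayed opposite. The macrophage direction was not that of each of its subsets. The Ccl4 ratio was -1.25 in resident dermal macrophage-like cells and 0.97 in monocyte and inflammatory macrophage-like cells. In macrophage sub-clusters that kept no name it was -0.06 (-0.31 to 0.18).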

How the results depend on the processing

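No paired analysis was possible because each group is 1 library. Of 427 alternative values of the log2 ratios, 415 kept the sign and 12 did not, 3 of these from a value whose interval excludes 0. In all, 366 stayed within the counting interval of the value reported. In T and NK cell-like cells TMM and DESeq2 scaling shifted every gene by -0.14 and -0.12 (Ccl5 2.64 and 2.66), and cells with at least 500 genes gave Ccl4 3.45 and Ccl5 3.09. The mean over cells gave 2.83 and 2.46, and cells with a Cd3 count gave Ccl5 2.36. Of the alternatives added after seeing the data, leaving out the NK-like cells gave Ccl3 1.38, Ccl4 1.51 and Ccl5 2.19. Leaving out unnamed sub-clusters gave Ccl4 3.58, and leaving out the 5 highest cells of each library gave Ccl4 2.49 and Ccl5 2.68. For Ccr1 that step takes out every count of the Shi-Bi-Man library, where only 4 cells of the class held one. Its value of -5.39 there depends on the 0.5 added to each count and says nothing further about Ccr1. At the imiquimod mix the values were 0.69 for Ccl3, 1.09 for Ccl4 and 1.17 for Ccl5. In macrophages, resolution 2 gave Ccl4 -0.84, Ccl5 2.84 and Ccr1 -2.74, 20 components gave Ccl3 -0.049 and Ccl5 0.88, and the mean over cells gave Ccl4 -0.43. At the imiquimod mix Ccl3 was -0.13, Ccl5 2.23 and Ccr1 -1.37. Ccl5 was 0.43 in cells with no Cd3 count, 0.61 without the 5 highest cells and -0.089 without unnamed sub-clusters. Over all cells Ccl4 was -1.25 with at least 500 genes, -0.75 as a mean over cells and -1.04 without mast cell-like cells. The 3 were that macrophage Ccl5 value of -0.089, Ccl5 in IL-17-type cells (-0.072 with 20 components) and Ccl3 in resident macrophages (-0.054 with the members allowed in clustering). Of the other 9, whose reported intervals span 0, 2 were the macrophage Ccl3 values above. The monocyte and inflammatory macrophage-like cells gave Ccl5 0.44 with at most 10% mitochondrial counts, 1.28 with the members allowed and 0.23 as a mean over cells, where Ccl3 was -0.24. Regulatory T-like cells gave Ccl5 1.53 with at least 500 genes and 1.44 at resolution 0.5, and resident macrophages gave Ccl5 -0.76 with 20 components. Except where fewer cells enter by construction, the cause was not tested. Thinning to 1000 counts left out 1236 and 364 T and NK cell-like cells and gave Ccl4 in 10.9% of those of the Shi-Bi-Man library. Ccr1 had 51 counts in the Shi-Bi-Man library.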

Other observations

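In the imiquimod library, cycling macrophage-like cells held 24.8% of the Ccl4 counts of the macrophage class and 20% of its Ccl3 counts, and made up 10.99% of its cells. In the Shi-Bi-Man library the 9 cycling cells held 0.69% of the Ccl4 counts and 0 counts of Ccl3. A single cycling cell of the imiquimod library held 175 Ccl4 counts, the most of any cell. A further macrophage sub-cluster without a name, in which haemoglobin genes and Cd72 led, had Ccl5 in 5 of 65 cells of the Shi-Bi-Man library with 59 counts, and in 4 of 273 cells of the imiquimod library with 16 counts.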
